A study of Arabidopsis thaliana with 6 samples.

Results

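The 6 Affymetrix arrays of this Arabidopsis thaliana series fall into 2 rounds of seedling pools, with 3 arrays numbered replicate 1 and 3 numbered replicate 2 in their titles. Each round holds 1 array of each group, so all 6 arrays entered the comparison and each round 2 array was paired with the round 1 array of its group. The groups were line HY213 after 8 h of mock treatment (HY213-MOCK), line HY213 after 8 h of estradiol (HY213-ESTRADIOL) and wild type after 8 h of estradiol (WT-ESTRADIOL). All were 9-day-old seedlings, labelled as ecotype columbia except for the round 1 mock array, which has no ecotype label. HY213 was taken to be the pER22-AGL24 line of the design text, because it is the line that stands beside the wild type in the titles. In that line estradiol activates a chimeric transcription factor that switches on AGL24, a MADS-box regulator of flowering. The design text calls the replicates independent pools. Whether the pools of a round shared a sowing, a treatment day, an extraction or a hybridisation is not stated in the labels, and these cannot be told apart. There are only 2 rounds, so the test asks whether the 3 groups share a difference, not whether another round would show it.

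Seedling tissue draws energy and carbon from sugars, and when these are short it can break down amino acids and its own cytoplasm. Autophagy wraps cytoplasm in membranes coated with ATG8 proteins and delivers it to the vacuole, where ESCRT complexes also send membrane proteins for degradation. Branched-chain amino acid breakdown in mitochondria passes electrons through the electron transfer flavoprotein to the respiratory chain. Growing cells loosen their walls with expansins, pectate lyases and endoglucanases, and lay down cellulose along microtubules built from tubulin.

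Round 2 differed from round 1 in 9.98% of the nuclear probe sets listed for 1 gene. Values are intensities on a linear scale as deposited, and differences are log2 of round 2 minus log2 of round 1, averaged over the 3 pairs and tested with limma on all 22746 probe sets. A probe set is called at a Benjamini-Hochberg adjusted p under 0.05. Of all probe sets 1534 were higher in round 2 (6.74%) and 1124 were lower (4.94%), with a median difference of -0.024 and 11.7% called in all. Among the 13415 probe sets listed for 1 nuclear gene, 762 were higher (5.68%) and 577 lower (4.3%), with a median of -0.028. Genes are counted as measured below only where such a probe set names them. A further 8730 probe sets were listed for no gene, so a gene not counted may still be on the array. Leaving out the HY213-ESTRADIOL pair left 478 higher and 287 lower of all probe sets, and leaving out the WT-ESTRADIOL pair left 741 and 500. Without the HY213-MOCK pair there were 2218 and 1744. For comparison, the same fit called 1 probe set (0.0044%), AGL24, for estradiol against mock in HY213 and 1 (0.0044%), again AGL24, for estradiol-treated HY213 against wild type. The group contrasts rest on 2 arrays per group and the round test on 3 per round. The round took 61.9% of the total sum of squares of the log2 values and the group 20.3%, and for the median probe set these shares were 35.9% and 25.8%. The round term has 1 degree of freedom and the group term 2, so these shares are not directly comparable.

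The pairs differed in the size of the gap. The HY213-MOCK pair had 469 probe sets at least 2-fold apart (2.06%), the HY213-ESTRADIOL pair 880 (3.87%) and the WT-ESTRADIOL pair 1179 (5.18%). A 2-fold difference in the same direction in all 3 pairs was found for 158 probe sets higher in round 2 (0.695%) and 77 lower (0.339%). Of the nuclear probe sets these were 78 (0.581%) and 30 (0.224%), and all of them were also called. AGL24, the check of the labels, read 106 and 401 in HY213-ESTRADIOL of rounds 1 and 2 and 4.60 to 5.05 on the other arrays. The highest Bacillus control, taken as the background level, stood at 5.99 to 6.22 on the round 1 arrays and at 5.14 to 5.31 on the round 2 arrays, and 58.2% to 60.5% and 69.0% to 72.7% of probe sets read above it. Array medians lay between 6.95 and 7.27. The 3 prime over 5 prime signal ratio, a sign of RNA length, was 1.82 to 2.29 in round 1 and 1.53 to 1.67 in round 2 for ubiquitin, 2.01 to 3.87 and 1.86 to 2.06 for actin, and 2.76 to 3.54 and 3.03 to 3.29 for GAPDH. The 25S ribosomal RNA control read 756 to 1248 in round 1 and 1504 to 1689 in round 2. Their part in the differences below was not tested.

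The 12 nuclear genes that lead on the higher side were those with the largest smallest-pair difference. AT2G37220, which encodes a chloroplast RNA-binding protein, read 68.1 in mock, 90.7 in estradiol HY213 and 54.6 in estradiol wild type of round 1, and 338, 319.6 and 337 in round 2. The round 2 arrays were close to each other and all far above round 1, a log2 difference of 2.25 ± 0.18 (SE, 3 pairs; adjusted p = 0.000851). TMT1, a sugar transporter of the vacuolar membrane, read 23.5, 16.8 and 16.4 in round 1 and 82.4, 75.9 and 89.7 in round 2, with 2.15 ± 0.17 (adjusted p = 0.000851). AT3G09440, a cytosolic HSP70 chaperone, read 25.4, 40.5 and 19.7 against 95.2, 141 and 73.2. Its pairs were 3.75-, 3.49- and 3.72-fold apart, nearly the same in each group. ATCES1, an alkaline ceramidase of sphingolipid turnover, read 16.9, 22.8 and 12.3 against 72.2, 68.9 and 58.2. GAT1_2.1, a glutamine amidotransferase-like protein, read 129, 87.4 and 175 against 368, 451 and 554. A second probe set of GAT1_2.1 stayed at 4.57 to 5.10 on all arrays, below the Bacillus controls, and so bears on neither direction. The other genes of this group were the MATE efflux carrier AT3G23550, the kinase activator MOB1-like, the TIR-domain protein AT1G72900, the peptide transporter family member AT1G22570, the VQ-motif protein AT2G22880, the EF-hand protein AT3G10300 and AT2G18690. Their log2 differences lay between 1.55 and 2.14. In each of the 12 genes every round 2 array read above every round 1 array, as in 16.5% of all probe sets and 14.7% of the nuclear ones.

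On the lower side, 12 genes also had no overlap between the rounds, as did 18.5% of all probe sets and 18.7% of the nuclear ones. They include AT5G05960 and AT1G48750, which encode lipid transfer-like proteins of the kind secreted to the cell surface, and AT4G22212, a small defensin-like protein. AT5G05960 read 66.8, 51.9 and 67.3 in round 1 and 20.9, 12.03 and 8.23 in round 2 (-2.27 ± 0.24, adjusted p = 0.00186). AT4G22212 read 553, 427 and 345 against 206, 87.4 and 32.2, and its gap grew from 2.68-fold in the mock pair to 10.7-fold in the wild-type pair. DRT100, a leucine-rich repeat protein, read 78.7, 76.0 and 68.7 against 25.4, 10.3 and 11.4. The mock array of round 2 held the highest of the round 2 values in these 3 genes. AT1G19835, a filament-like protein, read 119.7, 112 and 118 against 46.1, 37.6 and 44.1, with a similar fall in each pair. The pectate lyase AT4G24780, the beta-tubulin TUB1, the GDSL lipase AT1G29660, the major latex protein family member AT1G14960, the HAD hydrolase AT3G62040 and the phosphodiesterase-like AT4G38690 were 3.03- to 4.85-fold lower. AT2G07707 was 3.13-fold lower, but transcripts of other loci can bind this probe set. All 24 leading genes were called in the same direction in each of the 14 alternative settings run. They had been chosen as called and at least 2-fold apart in every pair, which favours both this result and the lack of overlap.

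**Figure D1:**
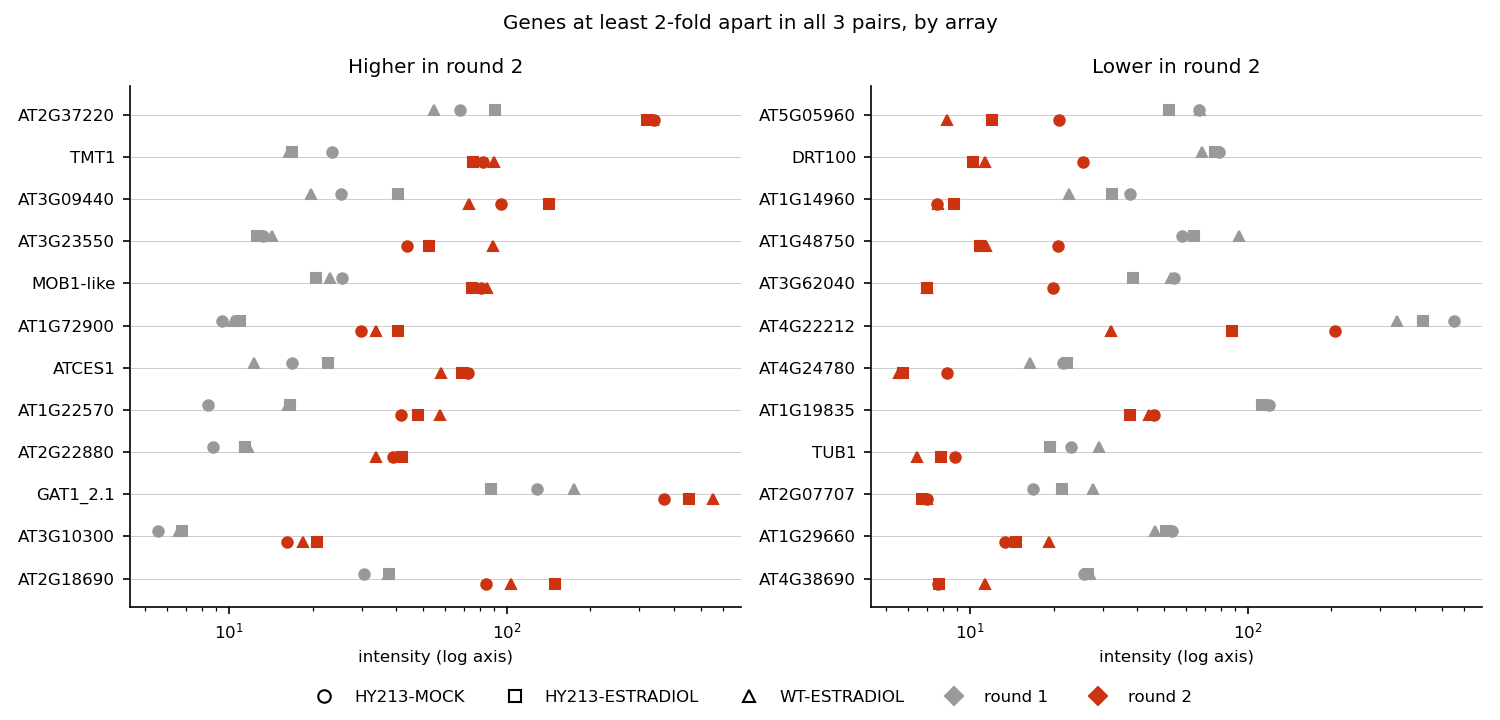
Intensity (log axis) of the 12 leading genes higher in round 2 (left) and the 12 lower (right), 1 point per array, grey for round 1 and red for round 2, with the marker giving the group. In all 24 genes the red and grey points do not overlap. The mock array of round 2 lies highest among the red points in several genes, among them AT5G05960, DRT100, AT1G48750, AT3G62040, AT4G22212 and AT1G19835.

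Genes of amino acid breakdown were higher in round 2. This list, like the others in this and the next 2 paragraphs, was assembled after the values had been seen, so its counts describe these arrays and are not evidence of their own. Of 14 genes 12 were called higher and 0 lower, against 6.74% and 4.94% of all probe sets, with a median of 0.86. All 14 were higher in each pair, where 22.9% of all probe sets and 21% of the nuclear ones were. ASPGB1, an asparaginase, read 183, 75.0 and 93.8 in round 1 and 271, 379 and 397 in round 2 (1.66 ± 0.30, adjusted p = 0.0128), with the smallest gap in the mock pair. ALDH6B2, the methylmalonate semialdehyde dehydrogenase of valine breakdown, read 496, 341 and 424 against 882, 953 and 926 (1.15 ± 0.14, adjusted p = 0.00306). The electron transfer flavoprotein subunits ETFBETA (1.15) and ETFALPHA (0.60) and their oxidoreductase ETFQO (0.80) were called, as were isovaleryl-CoA dehydrogenase IVD (0.67), the hydroxyglutarate dehydrogenase D2HGDH (0.94), the ornithine aminotransferase DELTA-OAT (0.93) and the methionine lyase MGL (0.96). MCCB, a subunit of methylcrotonyl-CoA carboxylase, was called at 0.80, and its partner subunit MCCA, at 0.32, was not. The remaining uncalled member was AT4G33150 (0.51), a lysine-degrading enzyme. Without the HY213-ESTRADIOL pair 4 of the 14 were called and without the WT-ESTRADIOL pair 8. ASPGB1 and ETFBETA were among those lost in the former (adjusted p = 0.0598 and 0.0729).

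Aldehyde dehydrogenases share 2 members with that list, ALDH6B2 and ALDH7B4. Of their 8 genes 4 were called higher and 0 lower, against 6.74% and 4.94% of all probe sets. ALDH2C4, which makes ferulate, read 161, 152 and 108 against 274, 283 and 289, tightly grouped in round 2. Of 10 probe sets for the respiratory chain 6 were called higher and 0 lower, with a median of 0.60, against 6.74% of all probe sets higher. SDH1-1, the flavoprotein subunit of succinate dehydrogenase, read 43.5, 35.7 and 23.1 against 119, 129.8 and 132 (1.94 ± 0.21, adjusted p = 0.00203). The probe set of its paralog SDH1-2 read below the Bacillus controls on all arrays but that of mock in round 2, where it stood just above them, and so bears on neither direction. AT3G15640, a cytochrome c oxidase subunit, read 36.1, 27.5 and 18.3 against 88.4, 77.1 and 73.5 (3.02-fold, adjusted p = 0.00213), and cytochrome c CYTC-1 read 532, 528 and 442 against 804, 843 and 741. AT3G15640 is also a known target of the copper-regulated microRNA miR398. Among such targets CCS, the copper chaperone of superoxide dismutase, read 23.0, 16.3 and 15.8 against 63.3, 62.7 and 79.1 (1.91 ± 0.19, adjusted p = 0.00152), and ARPN, a plantacyanin targeted by miR408, read 6.61 to 7.14 against 11.4 to 13.6. The 3 targets with a probe set listed for 1 gene were all called higher, also with any pair left out. For the respiratory chain the count fell to 2 without the HY213-ESTRADIOL pair, where CYTC-1 had an adjusted p of 0.0729, and to 3 without the WT-ESTRADIOL pair.

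Part of the autophagy and vacuolar sorting genes were also higher in round 2. Of 10 ATG genes 5 were called higher and 0 lower, with a median of 0.61, against 6.74% of all probe sets called higher. ATG8 genes make up 9 of the 10, with ATG3 the other, so these counts describe the ATG8 family. ATG8H read 12.9, 11.9 and 12.3 in round 1 and 22.8, 32.6 and 42.2 in round 2 (1.35 ± 0.19, adjusted p = 0.00495). ATG8E read 77.5, 45.6 and 95.2 against 154, 120.2 and 201, a gap of 1.99- to 2.64-fold in each group although the groups stood at different levels. ATG8C, ATG8D and ATG8G had differences of 0.01 to 0.11 and were not called, so the family split. Of 13 ESCRT and vacuolar sorting genes 5 were called higher and 0 lower, with a median of 0.23, against 6.74% of all probe sets higher. ELC, the ubiquitin-binding ESCRT-I subunit, read 43.7, 32.9 and 29.0 against 62.0, 82.0 and 108, and SNF7.2, which builds the ESCRT-III filament, 12.8 to 14.3 against 24.1 to 28.1 (0.97 ± 0.14, adjusted p = 0.00543). The vacuolar proton pump subunits VHA-A1 (0.94) and VHA-A3 (0.73) were called and VHA-A2 (0.10) was not. In the ESCRT list 1 call remained without the HY213-ESTRADIOL pair and 2 without the WT-ESTRADIOL pair, ELC being lost in both (adjusted p = 0.0749 and 0.0513). In the ATG list these counts were 3 and 5. VHA-A3 was lost in both as well (adjusted p = 0.111 and 0.118).

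The lists of this paragraph were also assembled after the values had been seen, so their counts describe these arrays and are not evidence of their own. In the endoplasmic reticulum, where misfolded proteins are withdrawn for degradation, 4 of 8 probe sets were called higher and 0 lower, against 6.74% and 4.94% of all. They were the derlins DER1 (0.88) and DER2.1 (0.70), the disulfide isomerase PDIL5-1 (0.60) and BZIP60, a transcription factor of the unfolded protein response. BZIP60 read 29.3, 27.3 and 32.0 against 48.0, 53.5 and 53.2, while the related factor BZIP28 had a difference of 0.04. A second probe set of DER1 read below the Bacillus controls on every array. Only 1 of the 8 was still called without the HY213-ESTRADIOL pair, BZIP60 having an adjusted p of 0.106 there. Among 19 sugar transporters the calls ran both ways, 3 higher and 1 lower, against 6.74% and 4.94% of all probe sets. SWEET2, a sugar carrier of the vacuolar membrane, read 23.3, 18.2 and 8.08 against 57.9, 104 and 127, the largest mean difference of this list at 2.60 ± 0.40 (adjusted p = 0.00736). SFP1, a senescence-associated transporter, read 54.6, 62.1 and 58.2 against 129, 195 and 217. SWEET11, which exports sucrose for phloem loading, went the other way, at 357, 342 and 444 against 290.2, 235 and 259.8, a call that was lost without either estradiol pair (adjusted p = 0.196 and 0.191).

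Some members of several wall and tubulin families were called lower in round 2, as were 4.94% of all probe sets. Most members of each family were not called. The expansin list is a general family list, and the other lists here were assembled after the values had been seen. Of 23 probe sets for pectate lyases, which cut pectin, 6 were called lower and 0 higher, with a median of -0.086 since most read near background: only 11 were above the Bacillus controls on all arrays. AT5G48900 read 66.8, 58.2 and 57.0 in round 1 and 28.9, 14.7 and 13.1 in round 2 (-1.77 ± 0.20, adjusted p = 0.00213). Of 18 expansins 3 were called lower and 0 higher, against 4.94% of all probe sets lower, and 2 of the 3 are EXPA7 and EXPA18, which are also among the root markers given below. EXPA8 read 13.3, 13.9 and 12.99 against 6.9998, 5.82 and 5.52 (-1.14 ± 0.12, adjusted p = 0.00167), and EXPA4, at 9.35 to 17.8 against 13.2 to 18.6, was not called. Of 22 TBL proteins, a family that acetylates wall polysaccharides, 5 were called lower and 0 higher. TBL36 read 31.8, 32.9 and 41.3 against 16.3, 12.4 and 11.2. Of 15 GH9 endoglucanases, which cut cellulose-type glucans, 4 were called lower and 0 higher, and none of the 4 calls remained without either estradiol pair. The beta-tubulin TUB6 read 217, 241 and 213 against 132, 91.9 and 126, and TUB1 and TUB6 were the 2 of 7 tubulins called, both lower. The subtilisin-type protease SBT4.12 read 235, 184 and 247 against 164, 59.0 and 73.5, with ATSBT5.2 the other lower call among 8. Neither of these 2 passed without the HY213-ESTRADIOL pair (adjusted p = 0.071 for SBT4.12 and 0.0565 for ATSBT5.2), nor did TUB6 (0.0941). In that setting 2 pectate lyases, 1 expansin and 2 TBL genes were called lower. Of the 7 cellulose synthase family genes measured, limma called 0, with 3 at an unadjusted p under 0.05.

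**Figure D2:**
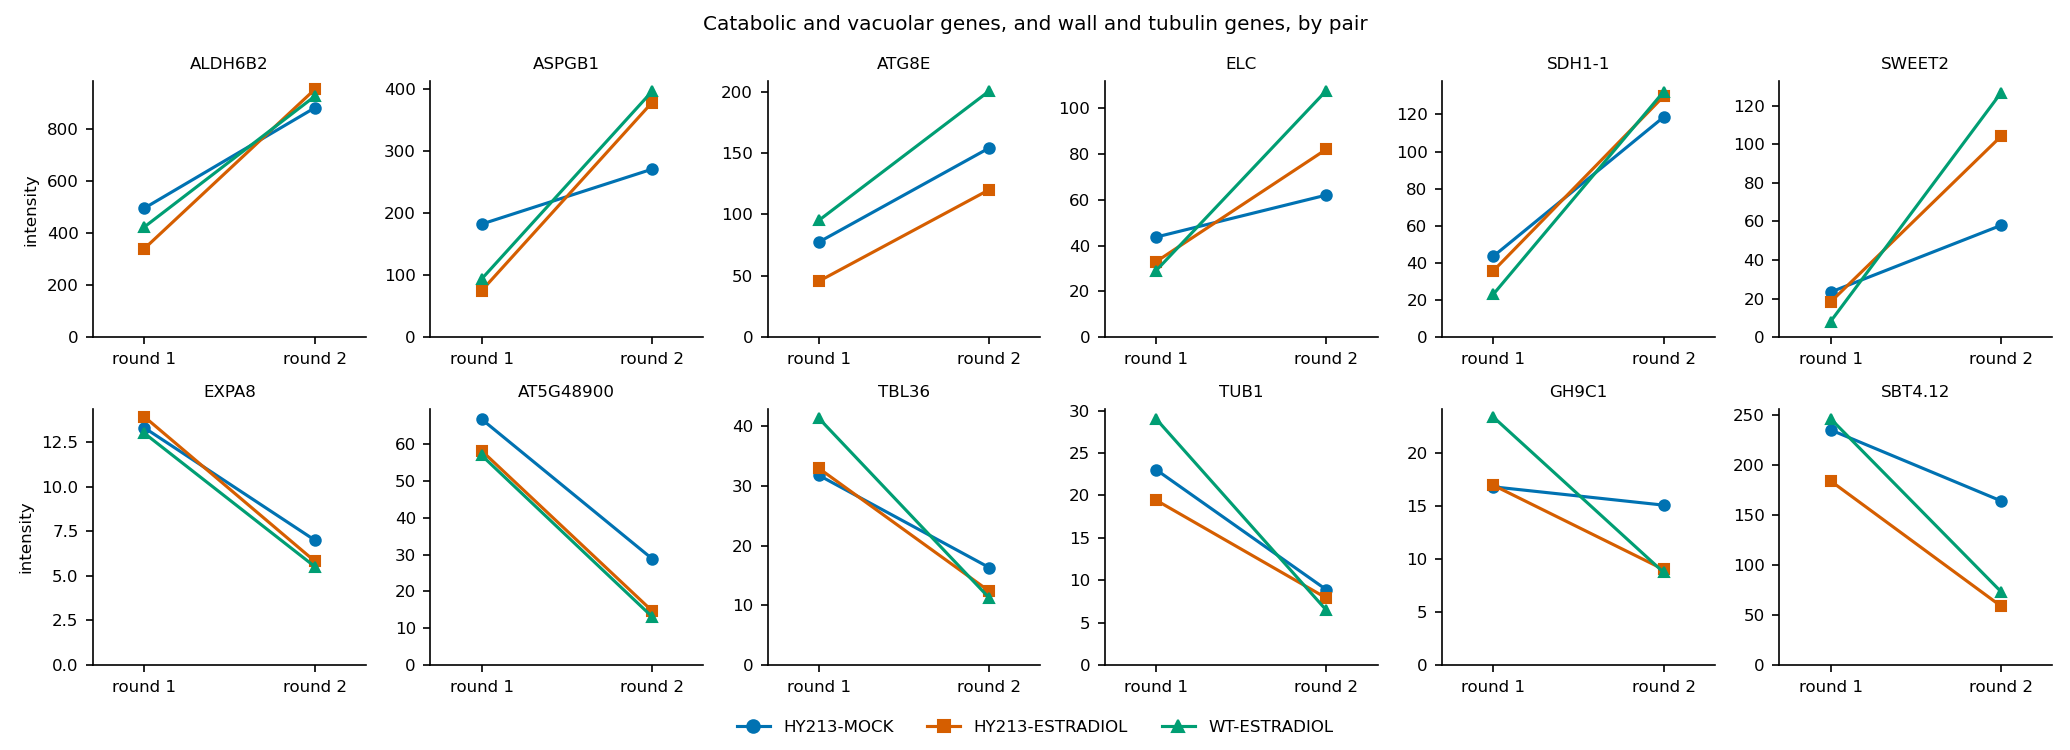
Intensity (linear axis from 0) in round 1 and round 2 for 6 genes of catabolism, autophagy, vacuolar sorting, respiration and sugar transport (top) and 6 wall, tubulin and protease genes (bottom), with 1 line per group joining its 2 arrays. Every line rises in the top row and every line falls in the bottom row. The mock line is the flattest in several panels, among them ASPGB1, ELC, SWEET2, GH9C1 and SBT4.12.

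The general lists, taken by gene family or pathway, covered photosynthesis, hormones, stress and specialised metabolism, and most held few calls. Of all probe sets 6.74% were called higher and 4.94% lower. Photosystem and light-harvesting genes had a median of 0.25, with 1 of 7 called higher and 0 lower. That gene was PSAE-1, a photosystem I subunit, at 777, 785 and 797 against 1326, 1131 and 1383 (0.70 ± 0.10, adjusted p = 0.00561). RCA, the activase of Rubisco, read 644, 461 and 195 in round 1 and 906, 838 and 1036 in round 2, so that its gap went from 1.41-fold in the mock pair to 5.31-fold in the wild-type pair. It was 1 of 2 called among 6 genes of the Calvin cycle and photorespiration, and was not called without the HY213-ESTRADIOL pair (adjusted p = 0.0642). The gibberellin receptors GID1A (0.85 ± 0.16, adjusted p = 0.0153) and GID1B (0.67 ± 0.16, adjusted p = 0.031) were called among 5 gibberellin genes. Both calls were lost without either estradiol pair, with adjusted p of 0.0751 and 0.0701 for GID1A and 0.0841 and 0.142 for GID1B.

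GH3.3, an enzyme that conjugates auxin to amino acids, was 5.30-fold higher over the 3 pairs at 21.9, 24.3 and 35.4 against 50.2, 225 and 249 (2.41 ± 0.34, adjusted p = 0.00484). Its family member GH3.17 was lower, at 15.8, 18.6 and 24.3 against 7.41, 12.2 and 14.4 (-0.82 ± 0.14, adjusted p = 0.0105). Of the 11 auxin genes 1 was called higher and 2 lower, against 6.74% and 4.94% of all probe sets. STZ, a zinc-finger repressor induced by cold and salt, read 13.9, 18.1 and 16.8 against 24.95, 80.0 and 104 (1.87 ± 0.30, adjusted p = 0.00782). The dehydrin LTI30 was the other of 2 calls among 6 cold and drought genes, and COR47 (-0.19) was not called. LTI30 read 72.5, 107 and 95.5 against 91.1, 242 and 205, with overlapping rounds, and was not called without either estradiol pair (adjusted p = 0.16 and 0.0941). WRKY6 (1.14 ± 0.20) and WRKY22 (0.90 ± 0.18), transcription factors of defence and senescence, were called higher of 6 measured. WRKY22 was lost without either estradiol pair (adjusted p = 0.089 and 0.0743). CML38, a calmodulin-like calcium sensor, read below the Bacillus controls on all round 1 arrays and 8.65, 14.7 and 14.5 in round 2, at least 2.0-fold higher with round 1 set at these controls.

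Of 50 UDP-glycosyltransferases, which attach sugars to hormones and phenolics, 8 were called higher (16% against 6.74% of all probe sets) and 1 lower. UGT87A2 read 34.9, 42.4 and 52.7 against 93.3, 129 and 119 (1.40 ± 0.16, adjusted p = 0.00213). UGT72E1, which glycosylates lignin precursors, was the lower gene, at 175, 212 and 208 against 158, 98.6 and 80.4. The higher calls numbered 3 without the HY213-ESTRADIOL pair and 3 without the WT-ESTRADIOL pair, and UGT72E1 was lost in both (adjusted p = 0.195 and 0.166). Wall-remodelling XTH enzymes split, XTH18 being higher at 70.3, 64.7 and 99.2 against 176, 229 and 268 (1.53 ± 0.16, adjusted p = 0.00168) and XTH19 lower (-0.67 ± 0.13, adjusted p = 0.017; 0.0611 without the WT-ESTRADIOL pair). Histone H2B genes split as well, HTB11 at 0.76 and HTB1 at -0.67. These were lost without the HY213-ESTRADIOL pair (adjusted p = 0.0904 and 0.231), and HTB11 also without the WT-ESTRADIOL pair (0.0559). Glutathione transferases had GSTU16 higher (0.78) and GSTU27 lower (-1.02), which had adjusted p of 0.0717 and 0.0535 without the HY213-ESTRADIOL pair. The general list of class III peroxidases leaves out others of the family that are given below, some of them called lower. Of its 7 members 3 were called higher and 1 lower, and 1 and 0 without either estradiol pair. AT5G64120 read 164, 221 and 148 against 522, 539 and 491 (1.56 ± 0.14, adjusted p = 0.00116), and PRXR1, at 1089, 1338 and 1261 against 908, 598 and 581, was the lower one and was lost without either estradiol pair (adjusted p = 0.115 and 0.0615). Calls were few among serine carboxypeptidase-like proteins and beta-glucosidases (1 higher and 2 lower of 26), defence proteins (1 and 1 of 12) and seed proteins (0 and 1 of 8). Of these lists 11, 5 and 2 members read above the Bacillus controls on all arrays. The shares over all probe sets were 6.74% higher and 4.94% lower. Of 3 glucosinolate genes 2 were called lower and 0 higher, and 0 were called lower without either estradiol pair. Limma called 0 of 24 cytochrome P450 genes (1 at an unadjusted p under 0.05), 0 of 6 flavonoid genes (1), 0 of 6 cytokinin genes (0), 0 of 5 jasmonate genes (0) and 0 of 6 flowering-time genes (2). Only 8, 1, 0, 2 and 3 of these, in the same order, read above the Bacillus controls on all arrays. The lack of calls therefore says little about these pathways, and most of the P450 genes measured were CYP71B members. GI was the only clock gene with a probe set listed for 1 gene. It read 71.8, 52.4 and 55.8 against 68.1, 69.4 and 76.7 and was not called (0.26 ± 0.17, adjusted p = 0.337).

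**Figure D3:**
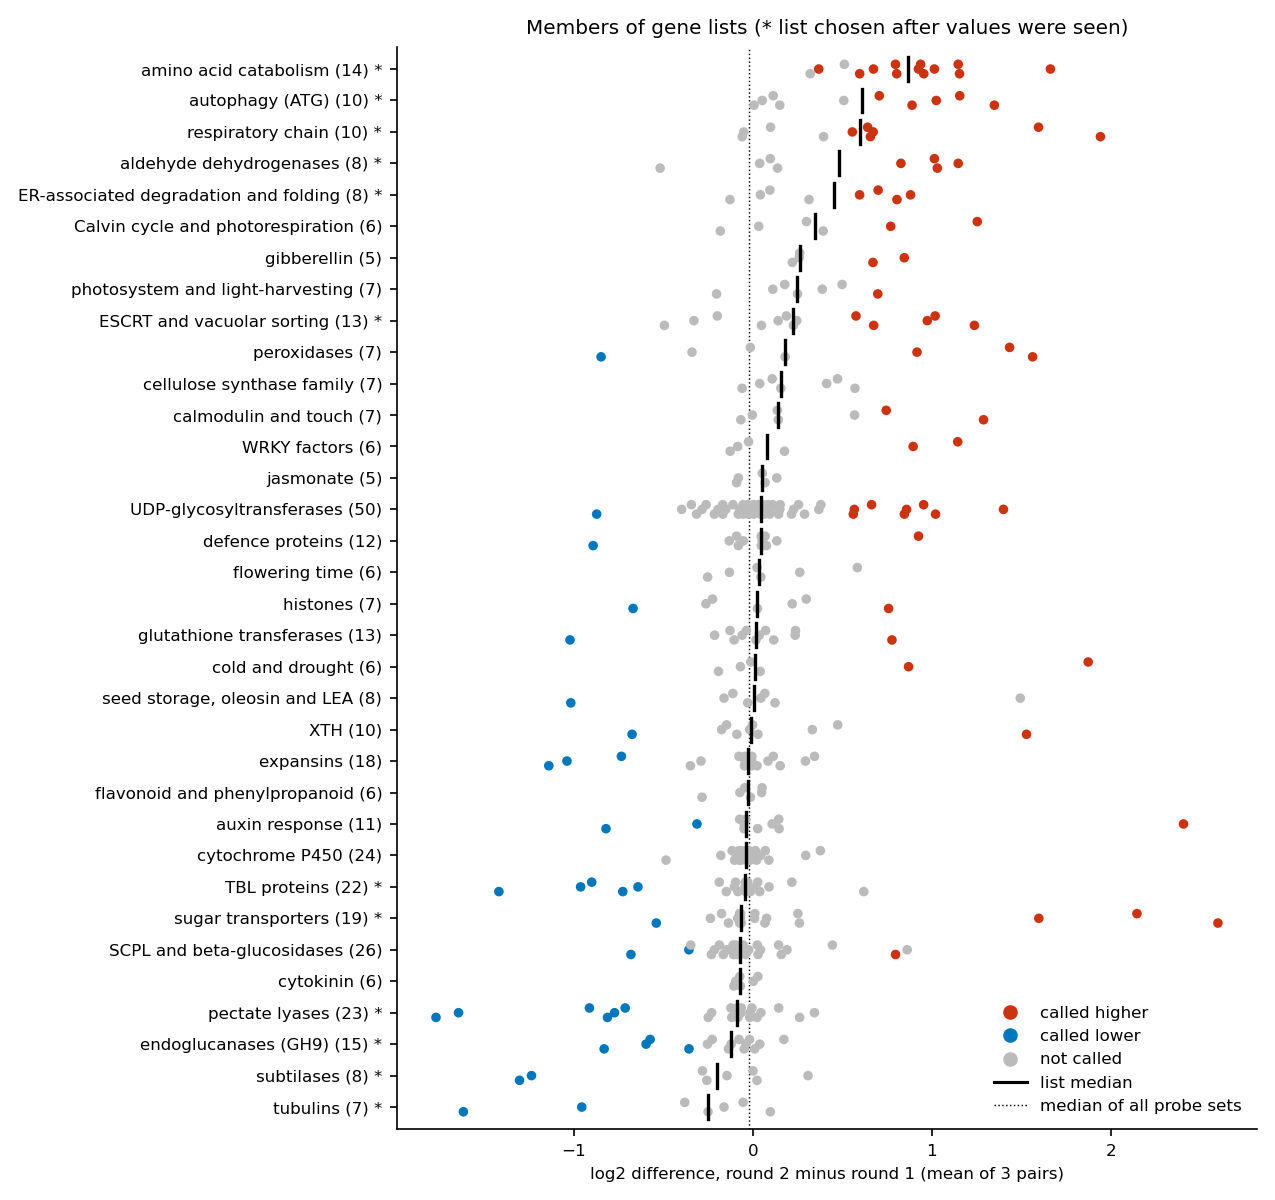
Log2 difference, round 2 minus round 1, of each member of the lists with 5 or more probe sets (number in brackets), red for called higher, blue for called lower and grey for not called, with a black bar at the list median and a dotted line at the median of all probe sets. Lists marked with a star were assembled after the values had been seen. They lie at both ends, from amino acid catabolism with a median of 0.86 to tubulins with -0.25.

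In bulk seedlings, fewer cells of a type and less RNA per cell cannot be told apart. Of the organ markers few could be named. All 3 of 15 listed root markers that were measured were lower in each pair, where 28% of all probe sets and 28.4% of the nuclear ones were, and 2 were called, the root-hair expansins EXPA7 (-0.73 ± 0.16, adjusted p = 0.0224) and EXPA18 (-1.04 ± 0.21, adjusted p = 0.0195). Neither was called without the HY213-ESTRADIOL pair (0.0862 and 0.0699) or without the WT-ESTRADIOL pair (0.103 and 0.0528). PYK10, the abundant beta-glucosidase of roots, read 1320.0, 1374 and 1278 against 1162, 1154 and 1044 and was not called (adjusted p = 0.117). The summed root markers, which are almost all PYK10, went from 1328 to 1414 in round 1 to 1063 to 1196 in round 2. The 1 measured shoot marker of 13 was RCA, given above, and the 1 measured seed marker of 12 was PAP85, a vicilin-like storage protein, at 5.01 to 5.96 in round 1 and 7.93, 42.8 and 9.90 in round 2. None of the 8 flower markers had a probe set listed for 1 gene. Plastid-encoded genes, which lie outside the nuclear set, were lower in round 2: 36 of 69 were called lower (52.2%) and 4 higher (5.8%), 58% in all, with a median of -0.51, and the lower count was 27 without the HY213-ESTRADIOL pair. Lower in every pair were 63.8% of them, and 62.3% did not overlap between rounds. The part of organ composition, or of plastid transcripts, in the nuclear differences was not tested.

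The size of the round difference depended on the group for a small set of genes. A term for the HY213-MOCK pair against both estradiol pairs, added after the data were seen and resting on 1 residual degree of freedom, called 83 probe sets (0.365%), 33 with a mock-pair difference above that of the others (0.145%) and 50 below (0.22%). Of the 83, 36 were nuclear and listed for 1 gene. In 68 of the 83 the mock pair had the smallest difference, and in 61 both estradiol pairs were 2-fold or more apart. The count was 0 without the variance trend, 12 without the dimmest 25% of probe sets and 241 with median centring, so it depends on the variance model and the scaling. There is 1 mock pair, and mock treatment and a deviation of either mock array cannot be told apart.

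Several of these genes had their lowest readings on both estradiol arrays of round 2. They included 5 class III peroxidases, which oxidise phenolics in the wall. AT4G26010 read 76.3, 70.0 and 80.7 in round 1 and 79.3, 11.6 and 8.91 in round 2, a mock-pair difference 2.94 above that of the other pairs (adjusted p = 0.00195). AT3G49960 read 44.5, 52.4 and 58.4 against 44.2, 14.3 and 12.6, and AT5G17820 read 116, 155 and 166 against 102, 30.5 and 39.9. AT3G01190 went from 72.1 to 136 in the mock pair and from 81.3 and 68.6 to 29.3 and 43.7 in the estradiol pairs, and AT4G11290 from 31.1 to 49.4 and from 56.5 and 23.7 to 17.2 and 13.7. These 5 peroxidases are not in the general peroxidase list, and were picked by this term. Of them AT4G26010, AT3G49960 and AT5G17820 were also called lower in round 2, calls that were lost without either estradiol pair and without the variance trend. AT4G15390, a BAHD acyltransferase, read 463, 418 and 459 against 291, 62.6 and 69.5, and the pectin methylesterase gene AT5G04960 read 59.1, 43.3 and 61.7 against 40.7, 7.45 and 8.54. BCAT4, an aminotransferase that starts methionine-derived glucosinolate synthesis, read 282, 217 and 193 against 212, 53.4 and 35.1.

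The opposite pattern, high on both estradiol arrays of round 2 only, was shown by AT2G36220 at 35.6, 44.0 and 34.2 against 45.0, 227 and 235, and by AT1G19020 at 29.5, 34.7 and 36.9 against 44.7, 288 and 211. AT2G47950 read 7.72, 8.98 and 7.68 against 7.07, 46.0 and 33.7. AT2G38240, a 2-oxoglutarate-dependent oxygenase, read 5.21 to 6.43 in round 1, 5.87 in the round 2 mock array and 43.6 and 25.02 in the round 2 estradiol arrays. GH3.3 and ASPGB1, described above, belong to the same set. ASPGB1 differs from the others in round 1, where its mock array read highest.

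**Figure D4:**
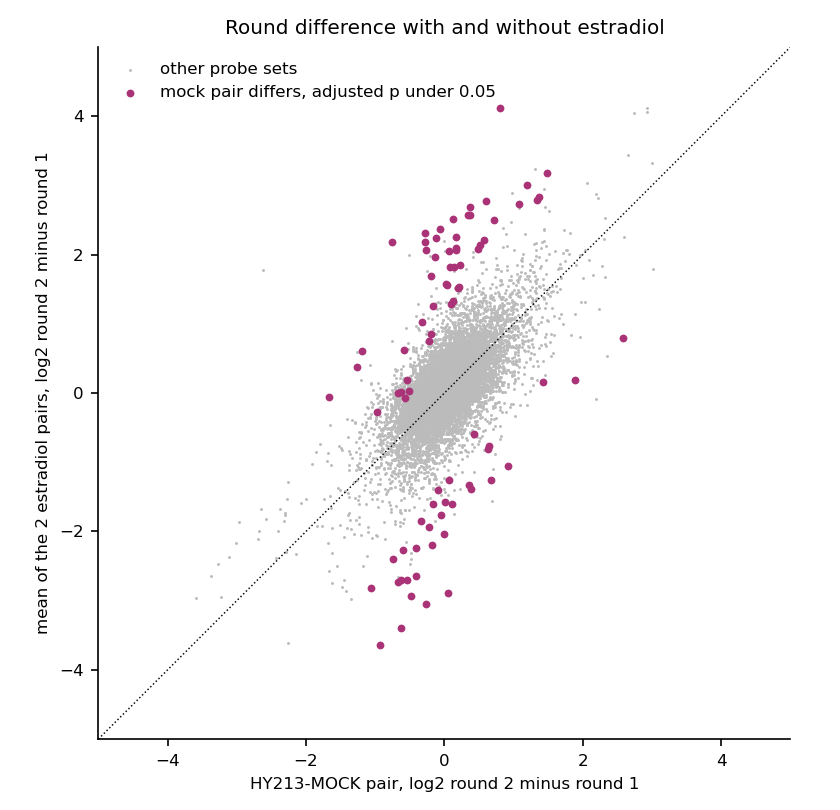
Round difference (log2, round 2 minus round 1) of every probe set in the HY213-MOCK pair (horizontal) and as the mean of the 2 estradiol pairs (vertical), with the dotted line marking equality and the 83 probe sets that differ at adjusted p under 0.05 in purple. Most purple points lie near 0 on the horizontal axis and far from 0 on the vertical axis.

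**Figure D5:**
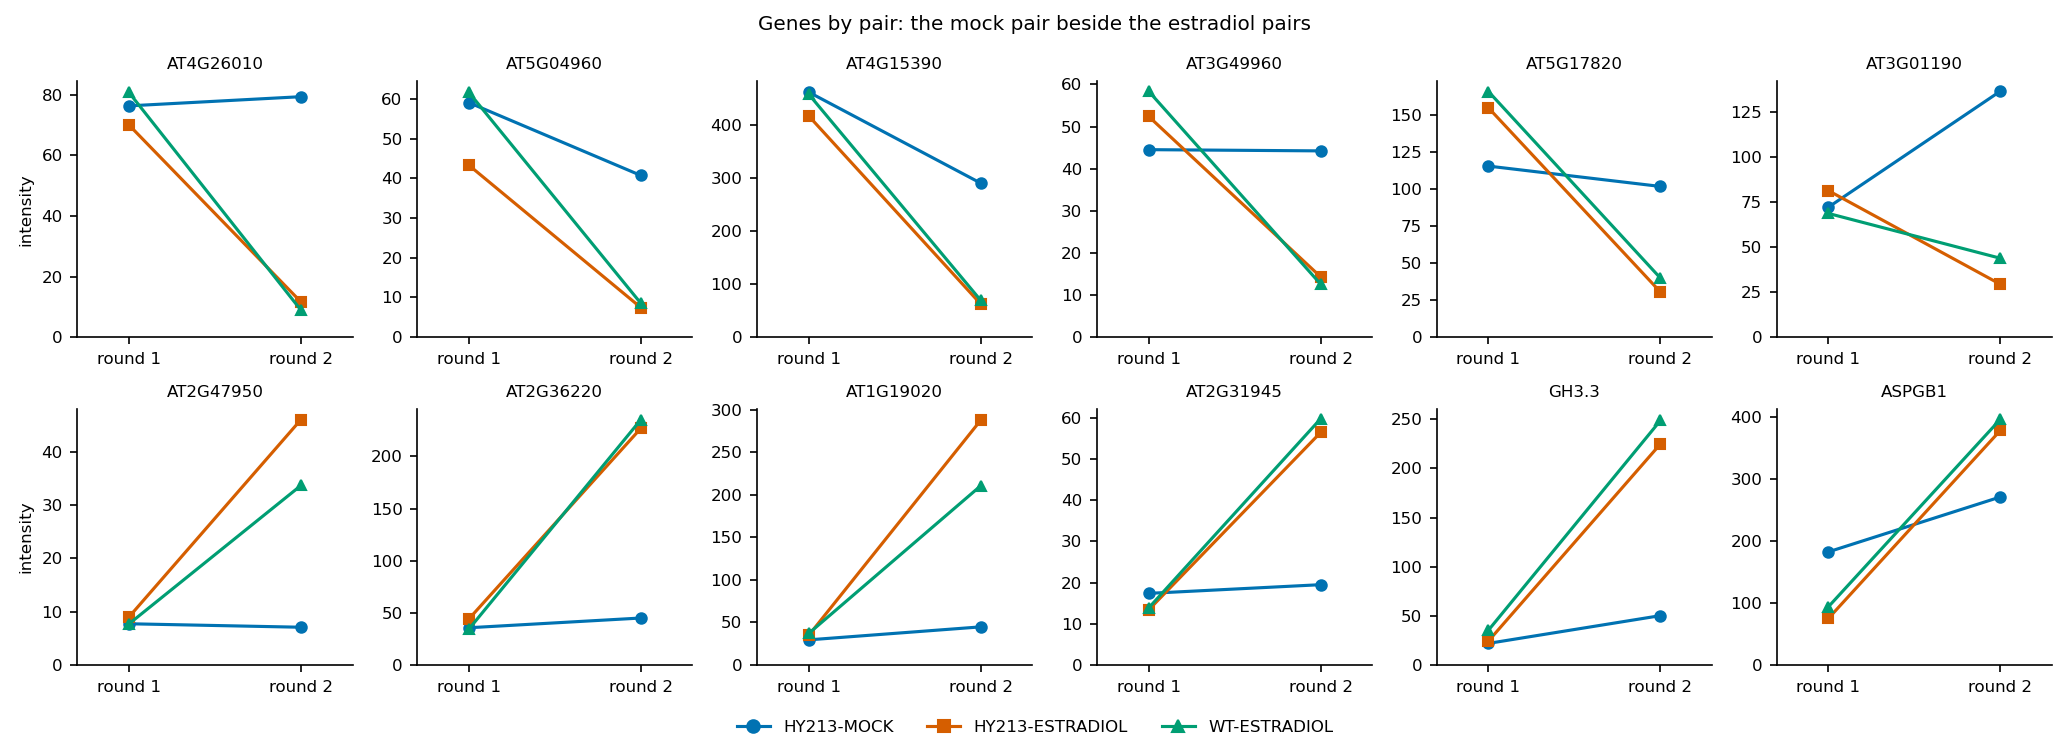
Intensity (linear axis from 0) in rounds 1 and 2 of 12 genes whose mock-pair difference differed from that of the estradiol pairs, with 1 line per group. In the top row both estradiol lines fall more than the mock line, and in the bottom row they rise more.

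Other pairs stood apart in fewer probe sets. The HY213-ESTRADIOL pair differed from both others in 16 (0.0703%), all higher, among them PAP85 and the seed-type cupin gene AT2G28490, which read 11.0 on the round 2 HY213-ESTRADIOL array and 4.43 to 4.97, below the Bacillus controls, elsewhere. The WT-ESTRADIOL pair differed in 2 (0.00879%), both lower, 1 of them AT4G33720, a PR-1-like secreted protein, at 369 against 51.0 where the other pairs read 375 against 609 and 90.5 against 144. At the call threshold itself, AT5G23760 (0.40 ± 0.11, adjusted p = 0.0498) stood just inside and AT2G25310 (0.58 ± 0.16, adjusted p = 0.0501) just outside on the higher side. On the lower side these were AT5G48960 (-0.47 ± 0.13, adjusted p = 0.0499) and AT5G54020 (-0.25 ± 0.07, adjusted p = 0.05 after rounding).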

How the data were processed

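Each of the 6 seedling samples was hybridised to 1 Affymetrix array. The authors deposited 1 table of intensity values on a linear scale for 22810 probe sets. MAS5 and RMA are named in the submitters' processing notes, and which of them made the table is not recorded there. The 64 controls were left out, which leaves 22746 probe sets. The platform annotation lists 13513 for 1 gene, 503 for several and 8730 for none, and 13436 of the 13513 matched RefSeq (TAIR10.1). Genes were not named from probe sets with several genes.

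The deposited intensities were put on a plain log2 scale. Linear models came from limma (version 3.58.1, R version 4.3.3), with variances moderated along a trend, group as a block and round as the tested term, 2 residual degrees of freedom, and Benjamini-Hochberg adjustment at 0.05. The pairing comes from the rule that matches arrays by group. An exact sign-flip permutation test over 3 pairs cannot go below 0.25 two-sided, so no single-gene permutation p is given. The number of arrays limits the precision. On simulated data with 50 probe sets at each fold over 22746, the round fit called 48% of 1.5-fold, 84% of 2-fold and 100% of 4-fold differences, with 5 false calls. Noise was drawn separately for each array, and far fewer probe sets differed than were called on the real arrays. These rates therefore need not hold there, and an error shared by the arrays of a round was not simulated.

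The comparison, its members and the gene lists were chosen with earlier results of these data known. Leading genes were the 12 per direction with the largest smallest-pair difference among nuclear genes that were called, 2-fold apart in all 3 pairs and above the Bacillus controls in the higher round. Up to 4 members per described list were named by the size of the mean difference, among those with 1 direction in all pairs and above the Bacillus controls in the higher round. AGL24, the clock gene and the genes beside the threshold were named too. Other members named, the 14 added lists and the genes chosen by the pair term were picked after their values were seen. List patterns were corrected after they first matched unrelated genes. A planned promoter motif count was not run.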

Additional observations from a re-analysis of the deposited data

Results flagged for a closer look

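The genes given here differ between pairs in the size of the round difference, by the added limma term for 1 pair against the other pairs (adjusted p under 0.05, 1 residual degree of freedom). Values are log2, the round difference of the named pair minus that of the others.

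For the HY213-MOCK pair the values above 0 were 2.94 for AT4G26010, 2.16 for AT5G04960, 2.06 for AT4G15390, 2.03 for AT3G49960, 2.02 for AT5G17820, 1.98 for AT3G01190, 1.92 for AT4G11290 and 1.83 for BCAT4. These 8 genes had the largest values of 15 nuclear genes above 0 that also passed a background filter. They were picked by this same term. That 5 of them encode peroxidases describes this selection only, and the share of that family over all probe sets was not counted. Values below 0 were -2.46 for AT3G22620, -2.39 for AT2G38240, -2.37 for AT2G47950, -2.24 for AT2G36220, -2.18 for AT1G19020, -2.09 for AT2G32190, -1.93 for AT2G31945, -1.82 for GH3.3 and -1.64 for ASPGB1. AT3G22620, a lipid transfer-like protein, read 5.83 to 9.94 in round 1, 6.27 on the round 2 mock array and 42.4 and 28.2 on the round 2 estradiol arrays. AT2G32190 read 5.29 to 6.22, 5.96, and 22.8 and 35.6 in the same order, so that it started at about the level of the Bacillus controls. AT3G22620 started near that level too, but not on every round 1 array.

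For the HY213-ESTRADIOL pair the values were 2.40 for PAP85 and 1.37 for AT2G28490. Both read below the Bacillus controls on all round 1 arrays, so these are differences of readings and not measured sizes. For the WT-ESTRADIOL pair the value was -3.54 for AT4G33720, whose round 1 arrays read 375, 90.5 and 369 for mock, estradiol HY213 and estradiol wild type.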

How the results depend on the processing

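The alternatives were pseudocounts, quantile and median scaling, a filter, floors, other variance priors, unpaired arrays and each pair left out. Among the calls of round 2 against round 1, those higher ranged from 478 to 2218 and those lower from 287 to 1744 with a pair left out. Setting each array's values to its own highest Bacillus control gave 2847 higher and 10817 lower, because that floor itself is lower in round 2. A common floor, added after seeing the data, gave 1831 and 1161 over 13165 probe sets. At an adjusted p of 0.1 there were 2345 and 2035. Without pairing by group, the setting with no replicate block, there were 1578 and 1210, and 14 named probe sets lost their call there while 3 gained one. Median centring made 67.3% of calls higher and quantile normalization 51.8%, against 57.7%.

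Probe sets 2-fold apart in all pairs numbered 62 higher and 36 lower with a pseudocount of 16, 20 and 11 with 64, 552 and 280 at 1.5-fold, 9 and 10 at 4-fold, and 183 to 390 and 92 to 224 with a pair left out, by construction of each criterion. Group contrasts gave 0 calls with a pseudocount of 16 or 64 and with the common floor (552 to 962 at an unadjusted p under 0.05 for estradiol against mock), and 210 and 122 with the array floor. For HY213 against wild type the 0 counts had 642 to 826 at that level.

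The mock pair term gave 40 calls with a pseudocount of 1, 161 with 16, 23 with 64, 222 with quantile normalization, 241 with median centring, 12 without the dimmest 25%, 424 with the array floor, 35 with the common floor and 0 without trend (2257 at an unadjusted p under 0.05). The HY213-ESTRADIOL pair term gave 260, 1 and 0 in the last 3 settings, and the WT-ESTRADIOL pair term 100 with the array floor and 0 with a pseudocount of 64, with median centring and without trend. With a pair left out this term has no residual degrees of freedom and was not run.

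The median changed sign in at least 1 setting in 18 of 44 lists. In 12 of them it lay within the spread between pairs of 0, from -0.084 to 0.105, and took values from -0.143 to 0.036. Of the others, UDP-glycosyltransferases (-0.16), calmodulin and touch genes (-0.0025) and nutrient transporters (-0.23) turned below 0 with the array floor, peroxidases without the mock pair (-0.030, and up to 0.457 with another pair left out), and sugar transporters turned above 0 with the common floor (0.011). Auxin genes turned above 0 with quantile normalization (0.0019), without the dimmest 25% (0.027), with the common floor (0.045) and without the mock pair (0.028, against -0.041 at the lowest with a pair left out). BAN, near background, turned to -0.14 with the array floor, and AT4G33720 to 0.69 without the WT-ESTRADIOL pair (-1.09 at the lowest with a pair left out). The causes were not tested. Of 115 named probe sets called, 59 lost the call without the HY213-ESTRADIOL pair, 38 without the WT-ESTRADIOL pair and 2 without the HY213-MOCK pair. The call was also lost by 32 without the variance trend, 14 with a pseudocount of 64 and 10 with a robust prior. RCA, ASPGB1, ELC and AT4G26010 were among those lost in limma without the trend (adjusted p = 0.117, 0.0574, 0.0568 and 0.144). The single-gene calls thus depend on the variance model as well. Signal over background limits the dim genes.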
